A study of Rattus norvegicus with 18 samples.

Results

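N6-methyladenosine (m6A) peaks of H9c2 cells given Shen-Yuan-Dan (SYD) together with phenylephrine were compared with those of untreated H9c2 cells, site by site. H9c2 is a line derived from embryonic rat heart, labelled here as wild-type cardiomyocyte. The SYD group was kept for 24 h with SYD, a Chinese herbal capsule, and phenylephrine at 50 µM, and the Control group was left untreated. The sample labels give the SYD dose as 2 mg/mL and the design text gives 1 mg/mL. A Model group that had phenylephrine alone, at the same concentration and time, also exists, so the comparison of SYD with Control differs in both agents at once and cannot assign a difference to either. Model values are given only to describe sites that were chosen without them. Each group had 3 replicates, and each replicate had an immunoprecipitated (IP) library and an input library that were joined in 1 peak list. Whether the replicates were separate cultures is not given in the sources used here, so p-values measure only the spread between these samples. The 6 lists held 21415 of the 32961 peaks of the series. Overlapping peaks of 1 gene (1 shared base sufficed) were joined across the 6 lists, which gave 7919 sites in 4432 genes, of which 3417 sites in 2312 genes were in at least 3 of the 6 lists. A site was called SYD-held when all 3 SYD lists and no Control list had it, and Control-held when all 3 Control lists and no SYD list had it. There were 286 such sites, 9 SYD-held and 277 Control-held, in 270 genes.

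m6A is the most common internal mark of mRNA. A methyltransferase complex with METTL3 as its catalytic subunit writes it, FTO and ALKBH5 erase it, and YTH and IGF2BP proteins read it and change the splicing, translation or decay of the marked mRNA. In methylated RNA immunoprecipitation, RNA fragments bound by an m6A antibody are sequenced beside input RNA, and a peak is a stretch with more IP than input reads. Phenylephrine, an agonist of alpha-1 adrenergic receptors, is used to make heart muscle cells grow in culture. A peak list holds no read counts, so the depth of the libraries is unknown, and a change of m6A cannot be told apart from a change of the amount of the mRNA that carries it. The label of the cells could not be checked through RNA levels for the same reason. Of the 46 muscle genes listed, 14 had a peak, against 2 of 28 markers of other cell types. Over all gene lists used here, 514 of 1129 genes had one. A gene without a peak may still be expressed, so these counts do not identify the cells.

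The SYD lists were shorter than the Control lists. They held 2508, 2691 and 2786 peaks, against 5556, 3629 and 4245 peaks in the Control lists. The SYD mean was 2662 ± 141 peaks and the Control mean 4477 ± 984 peaks (SD, n = 3 each), a ratio of 0.595, with p = 0.10 in the two-sided exact permutation test, which is the smallest p that 3 against 3 allows. No SYD list reached the shortest Control list. Genes with a peak numbered 1896 ± 108 per SYD list and 2899 ± 553 per Control list (exact permutation p = 0.10). The peaks also differed in kind. The peak score, which is −10 log10 of the p-value of the peak caller, had a median of 41.5, 43.5 and 43.1 in the SYD lists, against 62.8, 50.8 and 56.4 in the Control lists. The median fold enrichment of IP over input was 30.9, 21.4 and 30.2 in the SYD lists, against 7.29, 8.95 and 10.4 in the Control lists, 3.10 times as high on average. SYD peaks were thus fewer and of lower score, yet of higher fold enrichment, with no overlap between the groups in any of these measures.

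**Figure D1:**
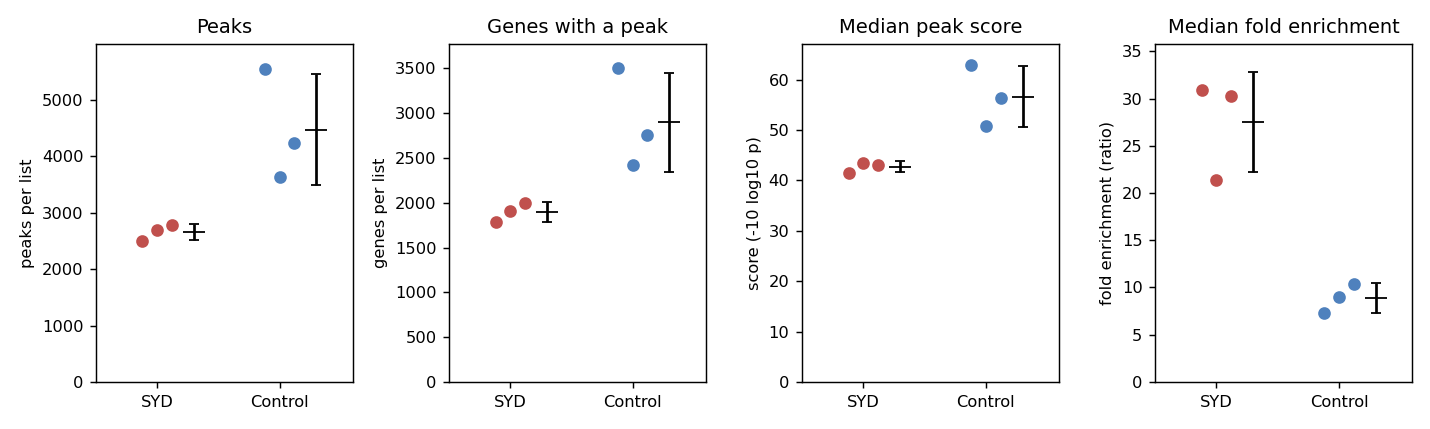
Each point is 1 of the 6 peak lists, with SYD on the left and Control on the right of each panel, and the bar beside the points is the mean with its SD (n = 3). The panels show peaks per list, genes with a peak, the median peak score and the median fold enrichment. The SYD points lie below the Control points in the first 3 panels and above them in the last.

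On average the lists of 1 group shared more sites with each other than with those of the other group. The mean share of common sites (Jaccard index) was 0.437 between SYD lists, 0.392 between SYD and Control lists and 0.454 between Control lists. This index is also limited where lists differ in length, as they did between the groups. The share of Jaccard distance between the groups was 28.8% as deposited and 22.3% with lists cut to equal length. Over the 6 lists, 1075 sites were in all. A further 35 sites were in 3 SYD lists and 1 Control list, and 347 sites were in 1 SYD list and 3 Control lists. The 286 sites of both patterns together were the highest total among the 20 ways to divide the 6 lists in 3 and 3 (exact permutation p = 0.10, the smallest possible, since each division counts in both directions). The 3 SYD lists were also the 3 shortest, and this test does not hold list length fixed. Its result is therefore not separate from the difference in list length.

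The 9 SYD-held sites lay in 9 genes, which was 0.263% of the 3417 sites and 0.389% of the 2312 genes. All but 1 had a modest score. The exception, LOC100911319, is annotated as a zinc finger protein 36, C3H1 type-like 2-like gene. Proteins of the ZFP36 family bind AU-rich elements and promote decay of the mRNA. Its site at chr7:2351933-2353330 (rn6) had scores of 3100, 116 and 115 in SYD 1, SYD 2 and SYD 3, and no peak in any Control list. SYD 1 was far above the other 2 SYD lists. A score of 3100 stands near the upper limit, since the highest score per list ran from 3100 to 3210 in the 6 lists. Scores of 3100 are therefore not ranked among themselves. Model 2 also had a peak there, with a score of 31.8. The gene resembles Zfp36l2, and reads shared with a near-identical copy could be placed on either, so its values are uncertain.

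Ski, a corepressor that binds SMAD proteins and damps TGF-beta signalling, had a SYD-held site at chr5:172561573-172561865 with scores of 59.6, 44.0 and 44.7. Its other site, in all 6 lists, had scores of 268, 316 and 553 in the SYD lists, against 1453, 836 and 1023 in the Control lists. The score of this strong site was lower in every SYD list, but its fold enrichment was higher in every SYD list, with 36.03, 25.8 and 57.8 in the SYD lists, against 17.4, 14.2 and 20.2 in the Control lists. Furin encodes a convertase that cleaves precursor proteins, natriuretic peptide precursors and TGF-beta among them. Its only site, at chr1:142194046-142194379, had scores of 21.9, 31.7 and 25.2 in the SYD lists. Wdfy3 encodes a large scaffold (Alfy) that brings protein aggregates to autophagosomes. Its site at chr14:9226125-9226304 had scores of 35.3, 20.9 and 20.9, and 2 Control lists had peaks elsewhere in the gene.

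Another 3 SYD-held sites lay in genes of the cytoskeleton and cell division, with low scores throughout. Numa1, which organises microtubules at spindle poles, had scores of 21.2, 35.4 and 29.2 at chr1:167086712-167086958. Clip2, a linker that binds microtubule ends, had scores of 27.0, 41.6 and 20.9 at chr12:25208853-25209050. Klhl21, an adaptor of a cullin-3 ubiquitin ligase used in cytokinesis, had scores of 22.6, 28.0 and 38.6 at chr5:169184837-169185242. In each of these genes every Control list had a peak at another site. For Numa1 a site in all 6 lists had scores of 1511, 1306 and 1368 in the SYD lists, against 3100, near the upper limit, in each Control list. The fold enrichment at this Numa1 site was 32.1, 22.2 and 29.4 in the SYD lists, against 13.6, 11.1 and 13.0 in the Control lists, thus higher in every SYD list. Klhl21 was the only gene with both kinds of site, since a site at chr5:169181418-169182438 had scores of 29.6, 106 and 66.7 in the Control lists and was in no SYD list.

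The other two SYD-held genes were Fam120a and Grasp. Fam120a, an RNA-binding protein, had scores of 53.8, 22.4 and 55.2 at chr17:16106137-16106610, and no Control list had a peak in the gene. Grasp, a scaffold protein associated with the general receptor for phosphoinositides 1, had scores of 26.5, 30.2 and 29.2 at chr7:142869752-142870087. Every SYD-held site was also in at least 1 Model list, 4 of them in 1 list, 4 in 2 lists and Clip2 in all 3. None was therefore confined to cells given SYD, but the same held for nearly all sites found in all 3 SYD lists. Of these 1273 sites, 0.707% were in no Model list, 4.48% in 1, 15.9% in 2 and 78.9% in all 3. In Grasp the Model scores, 61.8 in Model 1 and 62.3 in Model 3, were above all 3 SYD scores.

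The 277 Control-held sites made up 8.11% of the 3417 sites, and their 262 genes 11.3% of the 2312 genes. They were 12.6% of the 2196 sites found in all Control lists. Most were weak peaks. Their lowest score over the 3 Control lists had a median of 26.5, against 109.5 for the sites in all 6 lists. It was under 30 at 172 sites and at least 50 at only 29. Since the lists end at a score of about 20, many Control-held sites were near that limit, the nearest being a site of Ebf3 with a lowest score of 20.04.

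**Figure D2:**
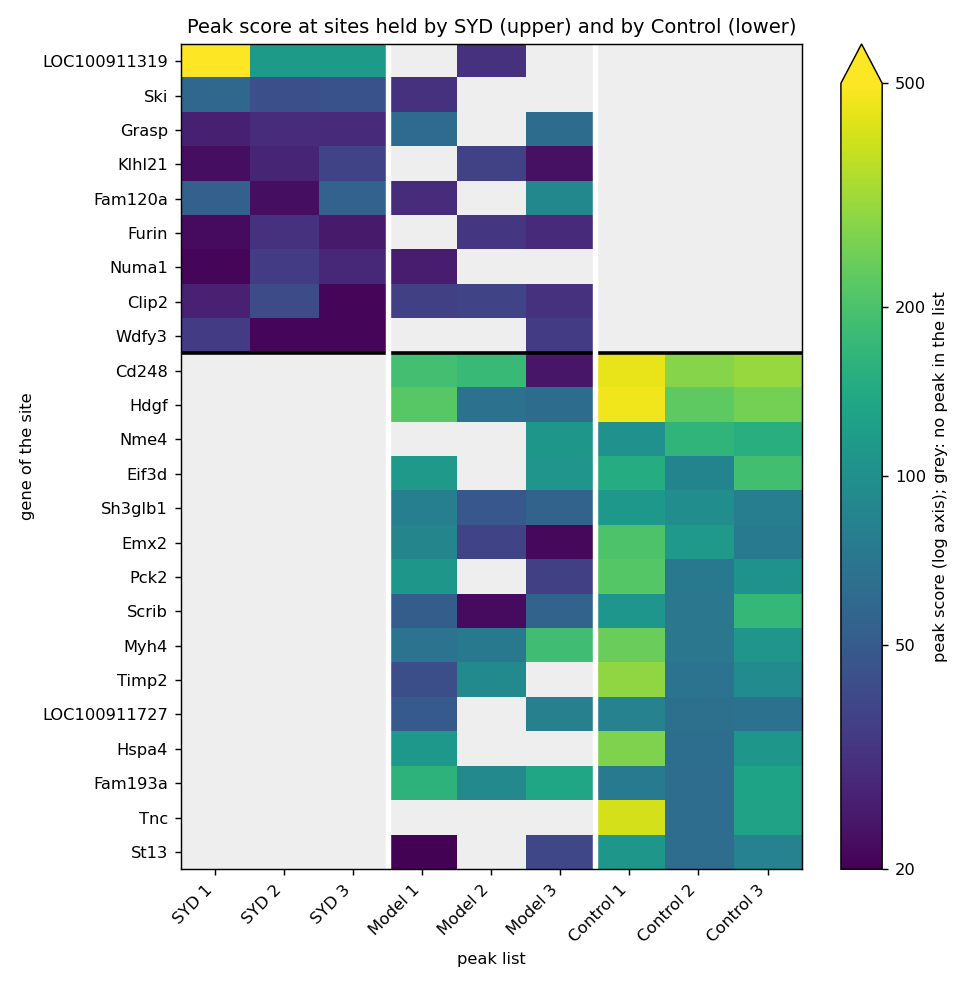
Each row is a site, named by its gene, and each column a peak list, in the order SYD, Model, Control. The colour gives the peak score on a log scale from 20 to 500, with higher scores in the last colour and grey where the list has no peak. The upper block holds the 9 SYD-held sites and the lower block the strongest Control-held site of 15 genes. The Control-held sites shown are brighter than all SYD-held sites but LOC100911319, and most rows have colour in some Model lists.

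The strongest Control-held site was in Cd248, a membrane glycoprotein of fibroblasts and pericytes. At chr1:220446517-220448989 its scores were 448, 280 and 304 in the Control lists, and its fold enrichment was 12.9, 21.4 and 17.2. It was also in all 3 Model lists, with scores of 191, 176 and 24.4, and it was the only site of the gene. Hdgf, a growth factor that acts in the nucleus, followed with Control scores of 464, 224 and 255 at chr2:187282019-187282207. A second Hdgf site was in all 6 lists, so every SYD list had a peak in the gene as well. The lowest of the 3 Control scores was over 200 at these 2 sites only.

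Other strong Control-held sites, chosen for their score, lay in genes of differing roles. Nme4, a mitochondrial nucleoside diphosphate kinase, had Control scores of 102, 165 and 153. Pck2, which makes phosphoenolpyruvate in mitochondria, had Control scores of 213, 73.1 and 105. Eif3d, a subunit of initiation factor 3, had Control scores of 148, 85.7 and 189 at chr7:119196938-119197074, with a SYD peak 1116 bases away in 1 list. Hspa4 and St13, both partners of the Hsp70 chaperones, had Control scores of 270, 64.1 and 110 in Hspa4 and of 110, 63.2 and 83.7 in St13. In each of these genes all 3 Control lists were above 60.

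The strong site of Tnc was in no Model list. Tnc encodes the matrix protein tenascin C and had Control scores of 405, 63.2 and 127 at chr5:79846787-79848196. Timp2, an inhibitor of matrix metalloproteinases, had Control scores of 294, 67.8 and 94.0, although 2 other Timp2 sites were in all 6 lists. Scrib, a protein of cell polarity, had Control scores of 108, 71.7 and 170. Of the remaining genes in the order of the lowest score, Emx2 (a homeobox factor) had Control scores of 205, 112 and 76.4. Fam193a had Control scores of 74.2, 63.2 and 129, and Model scores of 160, 90.5 and 134. LOC100911727, annotated as DNA ligase 1-like, had Control scores of 83.5, 65.3 and 66.2, and as a gene copy its reads are uncertain.

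Myh4, a fast skeletal myosin heavy chain, had 2 Control-held sites among its 14 sites. At chr10:53735041-53735166 the Control scores were 240, 71.3 and 107, and at chr10:53794207-53794596 they were 128, 58.0 and 56.5. Another 3 Myh4 sites were in all 6 lists with lower SYD scores. At chr10:53734120-53734323 the scores were 50.4, 51.2 and 52.1 in the SYD lists, against 944, 177 and 730 in the Control lists. Every SYD score at that site was below every Control score, while the fold enrichments of 50.4, 31.5 and 51.6 in the SYD lists and 48.9, 20.2 and 44.9 in the Control lists overlapped. At the other two the fold enrichment was higher in every SYD list, with 85.6, 22.9 and 76.3 in the SYD lists, against 18.4, 17.7 and 18.9 in the Control lists at chr10:53755613-53756002. At chr10:53760437-53760745 it was 33.3, 22.8 and 48.7 in the SYD lists, against 12.6, 16.02 and 17.0 in the Control lists. Myosin heavy chain genes lie side by side and resemble each other, so reads could be split among them.

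In all, 13 genes had more than 1 Control-held site. Cit, a kinase of cytokinesis, and Ddx27, an RNA helicase of the nucleolus, had 3 each, and Ahi1, Crnkl1, Cwc15, LOC498154, Micall1, Mybl2, Myh4, Nol12, RGD1305178, Sars and Tcof1 had 2 each. These genes are named for that count, after their values were seen. Sites of 1 mRNA are not independent, as they share its level. At Ddx27 the 3 sites had lowest Control scores of 37.9, 32.8 and 23.3. The sites of these genes in all ranged from 2 (Ahi1, Crnkl1, RGD1305178 and Sars) to 14 (Myh4), with 12 in Cit, and more sites leave more room for repeats. Tcof1 and Nol12, like Ddx27, act in ribosome production, and Crnkl1 and Cwc15 are parts of the spliceosome. By the deposited gene ontology terms, 17 of 163 nucleolus genes (10.4%) and 5 of 25 spliceosomal complex genes (20%) were Control-held, against 11.3% of all genes. Crnkl1 and Cwc15 are themselves among these 5. Other splicing terms varied, with 5 of 23 genes (21.7%) for the catalytic step 2 spliceosome and 3 of 22 (13.6%) for RNA splicing. For mRNA splicing via the spliceosome it was 3 of 26 (11.5%).

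For 143 of the 262 Control-held genes no SYD list had a peak anywhere in the gene. Many of these, such as Cd248, Nme4, Setd2 and Acaca, had only 1 site in the 6 lists. There the rule for Control-held sites by itself leaves the gene without a SYD peak. The like share over all measured genes was not counted. In 58 genes every SYD list had a peak at another site, in 61 genes 1 or 2 SYD lists had one, and 43 genes had another site in all 6 lists. Counted along the genome, introns included, no Control-held site lay within 200 bases of a SYD peak of its gene. Within 1000 bases there were 10, such as a site of Foxo3 at 928 bases and one of Luc7l3 at 907 bases. On the spliced mRNA the distances can be shorter, so they cannot be set against the fragment length of the assay. Peak borders were often identical between lists, with 72.9% of the peaks sharing both ends with a peak of another of the 6 lists.

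The Model lists, which the choice of sites did not use, held most of the Control-held sites in part. Of the 277 sites, 42 were in no Model list, 84 in 1, 96 in 2 and 55 in all 3, that is 15.2%, 30.3%, 34.7% and 19.9%. Over all 2196 sites of the 3 Control lists these shares were 3.14%, 8.79%, 23.2% and 64.8%. No test was made of the difference between these shares, and the Control-held sites were also of lower score. The 42 sites in no Model list, led by Tnc, included the chromatin gene Smarcc1, the cytoskeletal genes Ank3, Cttn and Tiam1, the growth factor Pdgfa, the transcription factor Tbx18 and Acaca, the enzyme that commits acetyl-CoA to fatty acid synthesis. Cttn had peaks at separate places of chromosome 1, so its values are uncertain.

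**Figure D3:**
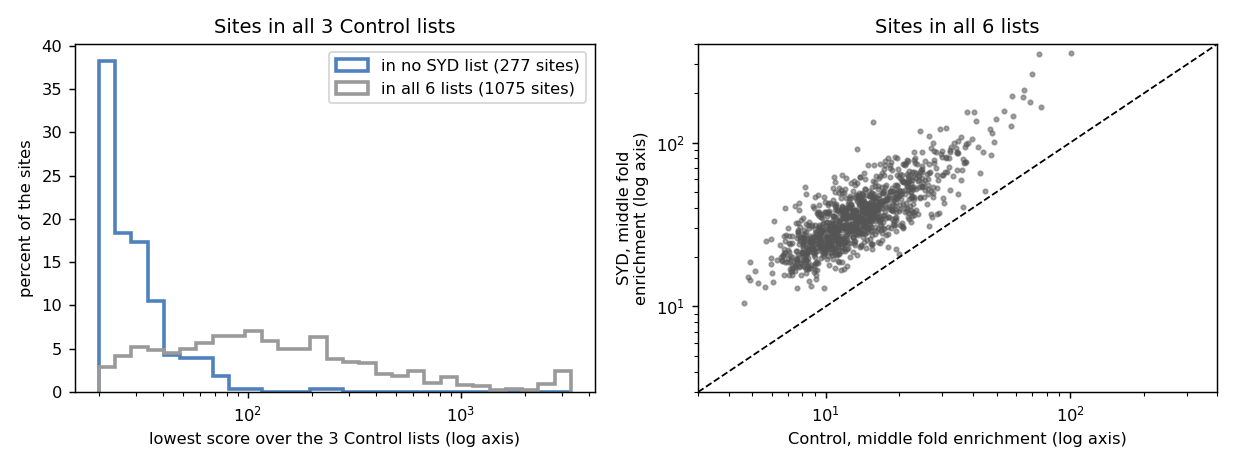
The left panel shows the lowest peak score over the 3 Control lists (log axis) against the percent of sites, for the 277 Control-held sites and the 1075 sites in all 6 lists. The right panel shows the middle fold enrichment of the 3 SYD lists against that of the 3 Control lists (log axes) for each site in all 6 lists, with a dashed line at equal values. The Control-held sites crowd at scores just above 20, and the shared sites lie above the line.

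Among the gene lists used to describe functions, chromatin regulators had the most Control-held genes, 10 of the 38 that had a site in at least 3 lists (26.3%, against 11.3% of all genes). It had no SYD-held gene, against 0.389% of all genes. Among these were the remodelling subunits Arid2, Chd3, Chd6, Ep400 and Smarcc1, the histone enzymes Setd2 and Kdm2b, and the PHD finger proteins Phf12 and Zmynd8. Setd2, the methylase of lysine 36 of histone H3, had its only site there, with Control scores of 80.3, 46.9 and 40.8. The other chromatin genes named here had a lowest Control score under 31. Genes of the list with a peak numbered 29, 27 and 38 in the SYD lists, against 51, 43 and 47 in the Control lists, a ratio of means of 0.667, near the 0.654 of all genes.

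The autophagy list was the only one with members held by each group. Its Control-held genes were Sh3glb1, Uvrag and Plekhm1, 3 of 14 measured (21.4%, against 11.3% of all genes). Its SYD-held gene was Wdfy3, 1 of 14 measured, against 0.389% of all genes. Sh3glb1 (endophilin B1) and Uvrag both bind the Beclin 1 complex that starts the autophagosome, and Plekhm1 helps it to fuse with the lysosome. Sh3glb1 had Control scores of 111, 97.3 and 79.0 at chr2:250743812-250744196, and Model scores of 80.6, 47.7 and 55.5. Uvrag had Control scores of 69.3, 63.4 and 26.7, and Plekhm1 had Control scores of 57.8, 46.5 and 26.4. Autophagy genes with a peak numbered 7, 10 and 10 in the SYD lists, against 17, 12 and 19 in the Control lists, with no overlap between the groups. This was a ratio of means of 0.563, beside 0.654 over all genes, where the groups did not overlap either. With lists of equal length the means were 9 genes in SYD and 10 genes in Control. Of the autophagy sites named here, only that of Sh3glb1 kept its pattern in those lists.

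The genes that the study itself follows were not among the 286 sites. Mtor, the kinase that restrains autophagy, had 5 weak sites, none in more than 3 of the 6 lists, with SYD scores from 27.1 to 52.6, against Control scores from 20.1 to 78.6. Tfeb, the transcription factor of lysosomal genes, had 1 site in SYD 2 with a score of 20.3 and another in Control 3 with a score of 23.4. Map1lc3b, the autophagosome protein LC3B, had 1 site in all 6 lists at chr19:53635509-53635614, with scores of 83.8, 59.0 and 29.5 in the SYD lists, against 391, 365 and 204 in the Control lists. The fold enrichment at this site ran the other way, with 28.3, 22.95 and 26.1 in the SYD lists, against 11.9, 15.1 and 8.78 in the Control lists. All SYD scores were thus below, and all SYD fold enrichments above, those of Control, the same opposite differences as over the lists as a whole, so no direction of methylation is read from the score. Tgfb1 had 1 site in all 6 lists, with scores of 35.3, 31.2 and 71.5 in the SYD lists, against 104, 29.5 and 66.9 in the Control lists, which overlapped. Its fold enrichment was 13.1, 15.1 and 18.9 in the SYD lists, against 4.60, 4.81 and 5.85 in the Control lists, with no overlap. Mettl3, Sqstm1, Becn1, Map1lc3a, Nppa, Nppb and Myh7 had no peak in any of the 6 lists, which says nothing of their RNA.

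In the muscle list Myh4 and Tbx18 were Control-held, 2 of 13 measured (15.4%), and in the matrix list Col5a1, Timp2 and Tnc, 3 of 15 (20%), against 11.3% of all genes. Of growth factors and receptor kinases Hdgf and Pdgfa were Control-held, 2 of 9 measured (22.2%). The Notch, Wnt and Hippo list had 3 Control-held genes of 22 measured, namely Fat4, a giant cadherin, Lrp6, a Wnt coreceptor, and Maml1, a coactivator of Notch. Fat4 had Control scores of 204, 32.6 and 61.1, and Maml1 had 110, 46.8 and 48.3. Genes of this list with a peak numbered 16, 19 and 18 in the SYD lists, against 28, 25 and 27 in the Control lists, with no overlap between the groups. The ratio of means, 0.663, was near the 0.654 of all genes.

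Stress, RNA and protein turnover genes were represented by a few members each. Eif2ak3 (PERK, a sensor of unfolded protein) had Control scores of 82.2, 57.8 and 61.9, its only site. Creb3l1 and Nfe2l1 were Control-held in the same list, which made 3 of 15 measured. Of the splicing and RNA binding list Clasrp, Ddx27, Luc7l3, Rbm25 and Rbm5 were Control-held, 5 of 25 measured, and Luc7l3 was the strongest with 267, 185 and 56.5. Eif3d and the synthetases Fars2 and Sars were Control-held in the translation list, 3 of 15 measured. The ubiquitin list had Cul1, Mib2 and Usp34, 3 of 23 measured. The apoptosis list had 1 of 5, Tnfaip3, an inhibitor of NF-kB signalling, with Control scores of 98.3, 38.9 and 57.8. Dnmt1, Foxk2, Foxo3 and Ppargc1b were Control-held in the list of DNA methylation and coregulators, 4 of 19 measured, and Acaca in the lipid list, 1 of 12. In the list of actin and spectrin scaffolds Ank3, Arhgef12, Cttn, Lmnb1 and Tiam1 were Control-held, 5 of 30 measured. Cttn had peaks at separate places of chromosome 1, and its Control-held site lay at chr1:217623690-217623744. At the other place a site, chr1:215276376-215276430, was in SYD 2, SYD 3 and Control 1. Reads could be split between the places, so the Cttn values are uncertain. No gene had a site of either kind in the lists of m6A machinery (8 genes measured), mTOR signalling (12), the TFEB family and lysosome (3), hypertrophy (14), immediate early genes and MAPK (20) or cell cycle (7), beside a share of 11.3% Control-held over all genes. Ribosomal proteins, oxidative phosphorylation and the markers of other cells had no gene with a site in at least 3 lists, so neither kind of site could occur there. Ski was the only member of the TGF-beta list with one.

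Over all 24 gene lists, genes with a peak were fewer on average in SYD than in Control for 22 lists and equal for 2. In 9 lists the groups did not overlap, each with an exact permutation p = 0.10. After Benjamini-Hochberg adjustment over the 24 lists this p was 0.267. Since 0.10 is the smallest p that 3 against 3 allows, no list could have passed a lower threshold, and the test cannot decide. Over all genes the groups did not overlap either, with 1783 to 1997 genes per SYD list and 2427 to 3507 per Control list. The median ratio of means was 0.730 over the 20 lists with a Control mean of at least 5, beside 0.654 over all genes. The listed genes as a whole were Control-held in 14.4% of the 333 measured, against 11.3% of all genes. The lists were chosen with earlier results of these data known, and this share supports nothing on its own. With the deposited gene ontology terms, 185 terms had at least 20 measured genes, and the Control-held share per term had a median of 11.4%. The nucleus term, the widest in use after the cytoplasm, had 96 Control-held of 847 genes, also 11.3%. The highest share was that of the spindle pole, 6 of 20 genes, chosen here for its rank.

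**Figure D4:**
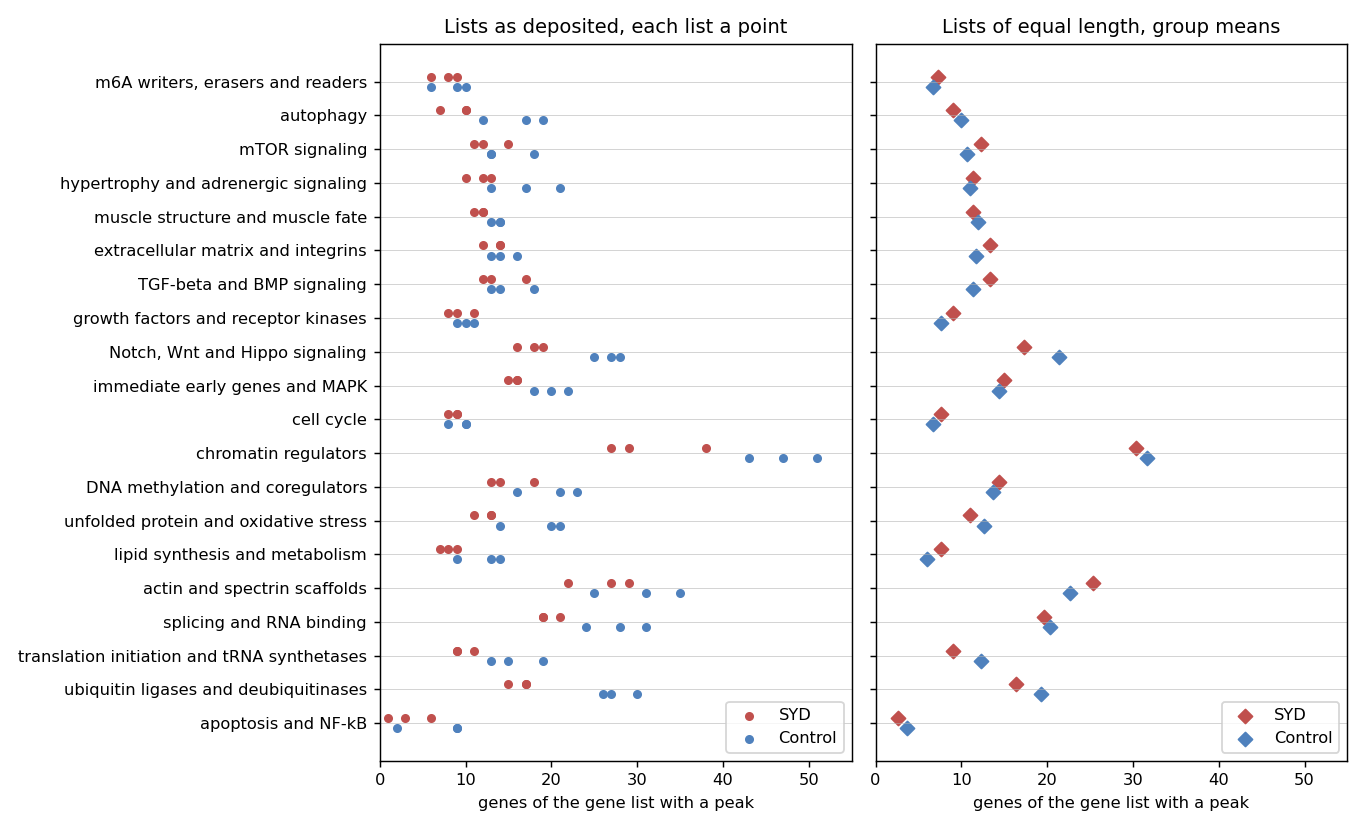
Rows are the 20 gene lists with a mean of at least 5 genes in the Control lists, and the horizontal axis counts how many of their genes had one or more peaks. On the left each point is 1 peak list as deposited, and on the right each diamond is the mean of 3 lists cut to equal length, with SYD above Control in each row. The SYD points lie to the left in most rows on the left, while the diamonds lie on both sides of each other on the right.

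The 2 patterns were nearer in number once the lists had equal lengths. Each list was cut to its 2508 peaks of highest score, the length of the shortest list, which raised the lowest score kept to 72.2, 33.4 and 44.96 in the Control lists, against 20.04, 21.5 and 22.6 in the SYD lists. Then 28 sites were SYD-held and 43 Control-held, 1.16% and 1.79% of the 2405 sites in at least 3 cut lists. Of the 9 SYD-held sites 7 remained, all but Clip2 and Wdfy3, and of the 277 Control-held sites 38 remained. With this change the mean of the SYD lists was lower than that of the Control lists in 10 gene lists, higher in 13 and equal in 1.

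A Control-held site has no SYD peak, so it remained where all of its Control scores passed the cuts. That a site remained thus largely repeats its score and lends it no further support. The 38 Control-held sites that remained included all 15 genes of highest score above, both sites of Myh4 among them. The others included sites in Prkar2b (a regulatory subunit of protein kinase A), Cep250 and Sbf2, in the transcription factors Tfap2a, Mybl2, Sall2, Creb3l1 and the homeobox A7 gene NEWGENE_1587253, in the coregulators Maml1 and Ppargc1b, in the RNA-binding proteins Luc7l3, Mex3b and Zc3h4, and in Aebp1, Eif2ak3, Sars, Tnfaip3, Mxra7, Plekho2, RGD1309188 and RGD1305178. Ppargc1b, a coactivator of mitochondrial and lipid genes, had Control scores of 154, 34.3 and 75.6, and was in all 3 Model lists with 35.2, 32.6 and 84.3.

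The 21 sites that became SYD-held only with equal lengths all had a Control peak as deposited, 9 in 1 list, 11 in 2 and Kdm4b in all 3, with a highest Control score between 23.4 and 66.7. They belong to the cut lists and are not SYD-held in the lists as deposited. Among them were Srf, the serum response factor of muscle and growth genes, Pink1, a kinase of mitophagy, Mcoln1, a calcium channel of lysosomes, and Thra, a thyroid hormone receptor. Pink1 had scores of 36.4, 67.1 and 48.3 in the SYD lists, against 27.9 in Control 2 and 30.8 in Control 3. Mcoln1 had 23.8, 50.7 and 42.7 in the SYD lists, against 28.0 in Control 2 and 40.8 in Control 3. Srf had 59.2, 26.7 and 49.8 in the SYD lists, against 38.4 in Control 3 alone. Zc3h4 had sites of both directions with equal lengths, a SYD-held one and its Control-held one. Col5a1 had a Control-held site as deposited and, at another place, a SYD-held one with equal lengths, so it had both under neither definition.

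**Figure D5:**
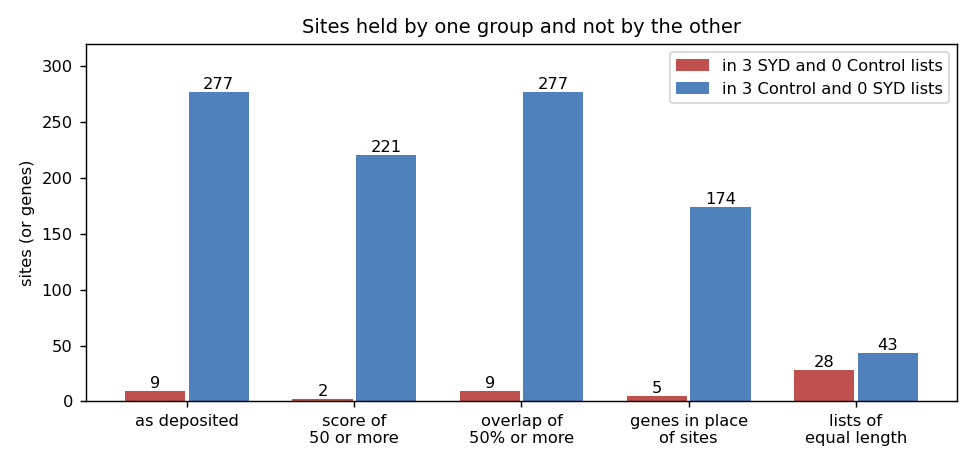
Bars give the number of sites (genes in the fourth pair) held by all 3 SYD lists and no Control list on the left of each pair, and by all 3 Control lists and no SYD list on the right, under 5 ways to define them. The counts are 9 and 277 as deposited and 28 and 43 with lists of equal length.

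A stricter score moved the other way. With only peaks of a score of at least 50, there were 2 SYD-held sites, in LOC100911319 and Fam63b, and 221 Control-held sites, but just 29 of these 221 were Control-held as deposited. The other 192 had a SYD peak with a score under 50. With genes in place of sites, 5 genes had a peak in every SYD and no Control list, namely LOC100911319, Tbc1d9, Fam120a, Furin and Abca3, against 174 genes the other way. Control 1 was the longest list, and without it the counts were 25 SYD-held and 402 Control-held sites, where 2 Control lists sufficed for the pattern.

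At the 1075 sites in all 6 lists SYD again had the lower score and the higher fold enrichment. The median score was 72.8, 78.6 and 86.6 in the SYD lists, against 264, 143 and 190 in the Control lists. The median fold enrichment was 37.6, 25.2 and 38.7 in the SYD lists, against 11.8, 12.3 and 15.4 in the Control lists, a difference of 1.34 on the log2 scale. Every SYD fold enrichment was above every Control one at 973 sites (90.5%), and every SYD score was below every Control score at 558 (51.9%). The median length of the peaks was nearly equal at these sites, 318 ± 2.31 bases in SYD and 318 ± 1.73 bases in Control (SD, n = 3 each). The part of library depth in these opposite differences was not tested.

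Once each list was centred on its median log2 fold enrichment, no shared site differed between the groups with limma, at an adjusted p threshold of 0.05 over the 1075 sites. The lowest adjusted p was 0.541, and 86 sites had an unadjusted p under 0.05. Without centring 1038 sites were higher in SYD and none lower. With the uncentred score in place of the fold enrichment, none was higher and 301 were lower. A single site passed in any centred fit, AABR07015066.1 at chr14:46588406-46588816, with a difference of 1.93 ± 0.33 (log2, SE) and limma adjusted p = 0.0473 when SYD 2 was left out. In the fit of all 6 lists its difference was 1.49 ± 0.38 (adjusted p = 0.541).

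The sites nearest to a call were as follows, given as values that did not pass. On the side of higher centred fold enrichment in SYD stood AABR07015066.1, Kctd17, Abr, Cdk11b, Slain2, Obsl1, Fbxl17, Sh3rf3 and 2 sites of Iqgap1. Kctd17, an adaptor of a cullin-3 ubiquitin ligase, had a fold enrichment of 105, 42.5 and 35.7 in the SYD lists, against 10.3, 7.76 and 6.13 in the Control lists, a centred difference of 1.44 ± 0.38 (log2, SE). Obsl1, a cytoskeletal adaptor related to obscurin, had a fold enrichment of 27.3, 24.5 and 61.7 in the SYD lists, against 5.80, 7.67 and 6.87 in the Control lists. On the side of lower centred fold enrichment stood Ddrgk1, Myh4, Hmgn5b, Bicd2, Golim4, Anp32b, Phldb3, Mcm2, Cald1 and Smarca2. Ddrgk1, part of the UFM1 conjugation system of the endoplasmic reticulum, had a fold enrichment of 40.5, 41.0 and 28.1 in the SYD lists, against 21.6, 36.4 and 54.9 in the Control lists, a centred difference of -1.31 ± 0.33. Cald1, an actin-binding regulator of contraction, had a fold enrichment of 36.8, 23.0 and 49.7 in the SYD lists, against 24.9, 23.8 and 21.5 in the Control lists. Its scores were 1073, 957 and 1821 in the SYD lists, against 3100, near the upper limit, in each Control list.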

How the data were processed

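Per the labels and the methods, RNA was fragmented to about 200 bases, reads were trimmed with cutadapt 1.9.3 and aligned with HISAT2 2.0.4 to rn6, and the authors called peaks with MACS for each IP library against its input, kept those on mRNA and annotated them. Replicates were not pooled. The deposited score equals the deposited −10 log10 p-value in every line, the deposited fold enrichment is a ratio of IP to input, and the deposited FDR is 100 percent in every line and was not used. No read counts were used here, so no counting interval was given.

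From the lists, sites were merged over the 6 lists (Python 3.11.15, pandas 2.3.3), each site taking the peak of highest score per list. List values were compared by two-sided exact permutation tests (20 assignments), and log2 fold enrichment at sites in all 6 lists by limma 3.58.1 (R 4.3.3), centred on each list's median, with Benjamini-Hochberg adjustment. The code was tested on simulated data. Named genes were those of all SYD-held sites, the 15 Control-held genes with the highest lowest score, listed genes with either pattern, the genes the study follows, the 10 shared sites per direction with the lowest p, and sites that remained with equal lengths. A few genes named by these criteria are left unreported here. The members and the gene lists were chosen with earlier results of these data known. Alternatives were lists cut to equal length, a minimum score of 50, a minimum overlap of 50% (shorter peak), genes in place of sites, other scalings, a replicate block and leaving out each list.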

Additional observations from a re-analysis of the deposited data

How the results depend on the processing

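SYD-held sites numbered 9 as deposited, 2 with a score of at least 50, 28 with lists of equal length, 5 with genes in place of sites and 73 when at least 2 lists against none were asked. Control-held sites numbered 277 as deposited, 43 with lists of equal length, 174 with genes in place of sites and 1071 with at least 2 lists against none. Leaving out 1 list asks for fewer lists, and gave 17 (without Control 2) to 35 (without SYD 1) SYD-held sites, and 26 without SYD 2, 30 without SYD 3, 25 without Control 1 and 20 without Control 3. Control-held sites then ranged from 365 (without SYD 1) to 673 (without Control 2), with 421 without SYD 3 and 550 without Control 3. Shared sites of higher fold enrichment in SYD numbered 0, but 1038 without centring, and 0 to 1 when a list was left out. Those of lower fold enrichment numbered 0, but 301 with the uncentred score, an alternative chosen after seeing the data.

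With lists of equal length the difference in genes with a peak (SYD minus Control) became positive for m6A machinery (0.667), mTOR signaling (1.67), hypertrophy (0.333), matrix (1.67), TGF-beta (2), growth factors (1.33), immediate early and MAPK genes (0.667), cell cycle (1), DNA methylation and coregulators (0.667), lipid (1.67), actin scaffolds (2.67) and oxidative phosphorylation (0.333), which as deposited were all negative.

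The ratio of peaks was 0.543 to 0.676, that of genes 0.605 to 0.731 and the share of Jaccard distance between the groups 30.6% to 35.3% when 1 list was left out. Same-numbered lists did not deviate together, with correlations of 0.0091, -0.028 and 0.0017, so the numbers were not taken to pair the samples. With the replicate number as a block, the ratios of peaks (0.595) and genes (0.654) and the share (28.8%) had an exact permutation p = 0.25, the smallest that block allows, and limma called 0 sites in either direction.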
